A study of Mus musculus with 20 samples.

Results

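The 10 genes of the epidermal growth factor (EGF) family described here were followed through 5 cell populations sorted from mouse epidermis, among 53380 genes of the deposited expression table. They were taken by name. The receptors were Egfr, Erbb2 and Erbb3, and the ligands were Areg, Ereg, Hbegf, Tgfa, Btc, Epgn and Nrg1. All 10 were found, and all 10 passed the filter on low values (a normalized count of at least 10 in at least 3 libraries), as did 17204 genes in total.

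Receptors of this family are tyrosine kinases in the cell membrane that work in pairs. EGFR binds most of the ligands, ERBB2 binds none and serves as a partner, and ERBB3 binds neuregulins but has little kinase activity of its own. The ligands are made as membrane proteins and are cut off at the cell surface, after which they act on the same cell or on its neighbours. In skin the receptors signal through RAS and ERK, hold keratinocytes in a growing state and guide the follicle and the closure of wounds.

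The study asked whether Thy1, a surface protein best known from T cells, also marks a kind of basal keratinocyte in adult dorsal skin, and sequenced RNA of 20 sorted libraries. Thy1hi cells (α6+ Sca1+ Thy1hi, 4 libraries) and Thy1- cells (α6+ Sca1+ Thy1-, 4 libraries) were keratinocytes of the interfollicular epidermis. Hair follicle stem cells (HFSC, CD34+ Sca1-, 4 libraries) came from the follicle bulge, and dendritic epidermal T cells (DETC, Thy1+ with low or no Sca1, 5 libraries) are the resident γδ T cells of mouse epidermis. Thy1hi YFP+ cells (YFP+, 3 libraries) were Thy1hi cells in which a Thy1 promoter had driven the recombinase CreERT2 and switched on a yellow fluorescent protein.

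For every library the labels name the genotype Thy1.2CreERT2-Rosa26-EYFP and no treatment. The methods instead describe wild-type C57BL/6J mice for the 4 populations sorted without YFP, and tamoxifen-induced Thy1-CreERT2;R26-EYFP mice for YFP+. In the labels the ages rise by 1 week from sample to sample, from 8 weeks in HFSC 1 to 27 weeks in Thy1- 4, so that age and population cannot be told apart, whereas the methods give 8-week-old mice throughout. One label field calls the YFP+ cells Sca1-, but their titles and the methods call them Sca1+. Mice were of both sexes, and the sources differ on whether a library held 1 mouse or pooled mice. Exact p-values and adjusted p-values therefore measure the spread between libraries, which may be technical in part. The series design names 2 batches without saying which library belonged to which, so no result could be examined within a batch. The DETC libraries 4 and 5 of the titles could not be matched to columns and are called DETC a and DETC b.

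Values below are the authors' normalized counts, that is reads on a gene divided by a size factor for the library, and libraries held 7781256 to 12982393 reads on genes. The markers of each sort were present. Summed over 6 T cell markers, DETC libraries held 14772 to 32331 normalized counts and the other 15 libraries 108 to 381. Summed over 6 bulge markers, HFSC libraries held 5771 to 9218 and Thy1hi libraries 682 to 987. A pair of libraries stood apart. In HFSC 4, 10 immediate early and heat shock genes summed to 3229 normalized counts against 66935 to 80107 in HFSC 1 to 3, and 4 Langerhans cell markers to 60.3 against 2010 to 4263. In DETC a, 5 basal keratinocyte markers summed to 5.01% of the Thy1hi mean, the lowest value of the 20 libraries. Comparisons with HFSC or DETC hold these libraries unless they are said to be left out, and values without both stand beside the members' called differences in which Thy1hi, Thy1- or HFSC were compared with HFSC or DETC. In all comparisons fewer cells of a type and less RNA per cell cannot be told apart.

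The genes of 4 ligands lie side by side on mouse chromosome 5 (build mm10, also called GRCm38). In order of position they are Epgn (91027464 to 91035215), Ereg (91074622 to 91093646), Areg (91139599 to 91148432) and Btc (91357261 to 91402994). Epgn, Ereg and Areg are read from the plus strand and Btc from the minus strand. The cluster spans 375531 bases, and Epgn and Ereg are 39406 bases apart. Its members did not share a pattern over the 5 populations, as the values below show. Egfr lies on chromosome 11 (16752203 to 16918158) and Erbb2 on the same chromosome at 98412470 to 98437716, both on the plus strand. Erbb3 is on chromosome 10 (128567523 to 128589652, minus strand), Tgfa on chromosome 6 (86195223 to 86275719, plus strand) and Nrg1 on chromosome 8 (31814551 to 32884029, minus strand).

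The 250 bases before the RefSeq start sites of Areg, Epgn and Btc are shown because the means of these 3 neighbours were highest in 3 different populations: Areg in DETC, Epgn in Thy1hi cells and Btc in Thy1- cells, although for Epgn and Btc the population with the highest mean was not separated from the next by limma. Windows are from GRCm38.p6 and run 5′ to 3′ along each gene's own strand, at chr5:91139349-91139598 (plus) for Areg, chr5:91027267-91027516 (plus) for Epgn and chr5:91402995-91403244 (minus) for Btc. Capitals mark matches to the motifs searched.
Areg: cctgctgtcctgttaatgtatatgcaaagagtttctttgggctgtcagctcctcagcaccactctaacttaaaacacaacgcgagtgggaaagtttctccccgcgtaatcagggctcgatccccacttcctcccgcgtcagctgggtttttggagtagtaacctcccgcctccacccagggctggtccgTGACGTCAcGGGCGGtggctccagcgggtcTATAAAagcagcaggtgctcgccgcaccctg
Epgn: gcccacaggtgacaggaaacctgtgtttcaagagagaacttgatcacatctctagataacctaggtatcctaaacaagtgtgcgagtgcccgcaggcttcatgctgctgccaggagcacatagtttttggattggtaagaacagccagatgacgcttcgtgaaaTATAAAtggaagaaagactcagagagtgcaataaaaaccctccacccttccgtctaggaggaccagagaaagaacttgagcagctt
Btc: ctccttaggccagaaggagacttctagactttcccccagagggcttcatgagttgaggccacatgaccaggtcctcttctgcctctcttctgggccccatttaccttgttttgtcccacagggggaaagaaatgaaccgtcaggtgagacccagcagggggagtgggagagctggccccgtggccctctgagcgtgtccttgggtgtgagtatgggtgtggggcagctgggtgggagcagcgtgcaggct

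Capitals in the Areg window are, from left to right, a cyclic AMP response element (CRE, TGACGTCA) whose leftmost base was 61 bases before the start, a GC box (GGGCGG) at 52 bases and a TATA motif (TATAAA) at 31 bases. In the Epgn window a TATA motif lay 86 bases before the RefSeq start, which is 33 bases before the gene start in the deposited table. The Btc window held no match. The search covered 5 motifs on both strands in the 300 bases from 250 before to 50 after the start, and the motifs did not overlap in these windows. Of 32851 RefSeq windows of this length, 1.79% held the CRE, 13.6% the TATA motif, 35.7% the GC box, 7.81% the AP-1 motif TGANTCA and 1.07% the E2F-like motif TTTCCCGC. Windows were at hand for 6 of the 10 members. Those of Egfr and Tgfa held GC boxes only, and that of Erbb2 held no match. A match describes letters and is not evidence of binding.

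**Figure D1:**
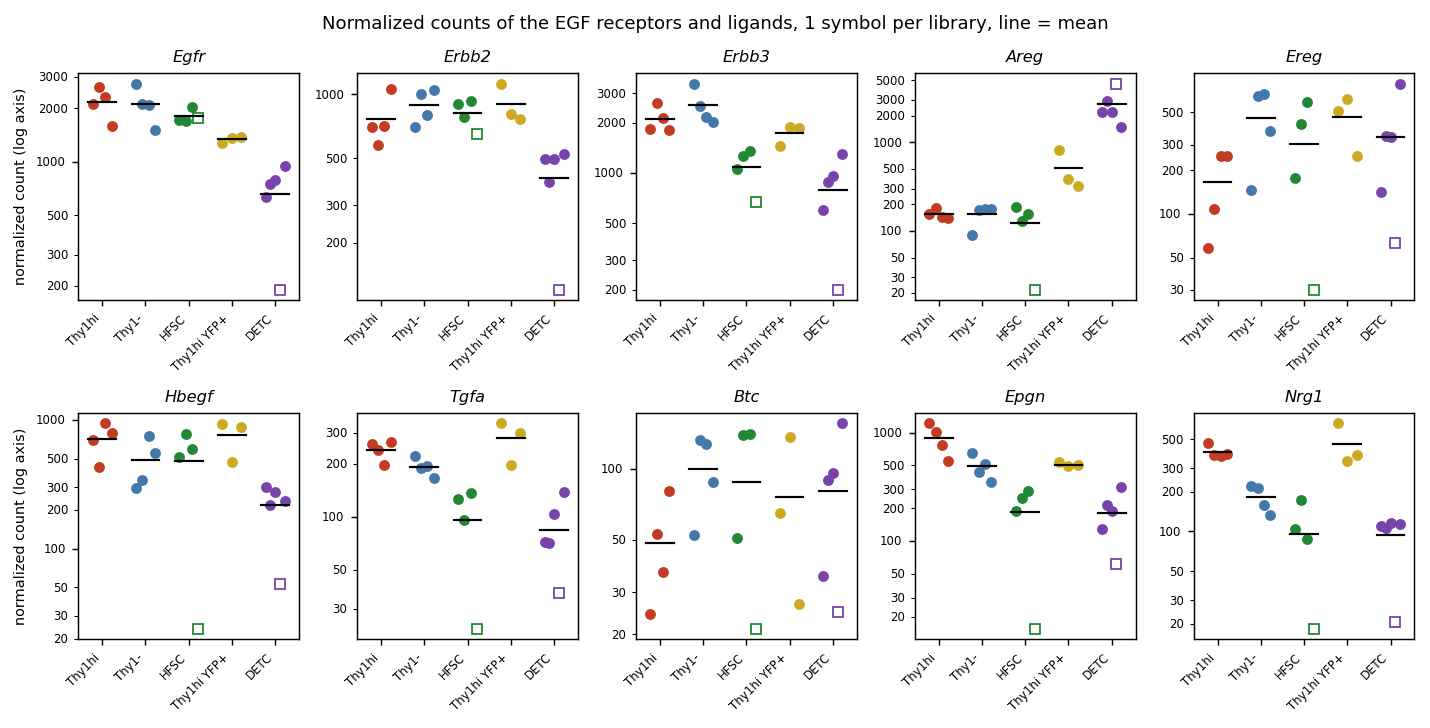
Normalized counts (log axis) of the 10 members in 20 libraries, 1 panel per gene and 1 column per population; each symbol is a library, the line is the mean, and open squares are HFSC 4 and DETC a. Areg is highest in the 5 DETC libraries (1475 to 4600), while the receptors are lowest in DETC a.

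All 3 receptors were read in every population and were lowest in DETC. Egfr, the receptor for most ligands of the family, read 2113, 2612, 2293 and 1589 normalized counts in the Thy1hi libraries 1 to 4. In Thy1- libraries it read 2747, 2099, 2080.1 and 1514, in HFSC 1719, 1701, 2039.8 and 1755, and in YFP+ libraries 1273, 1366 and 1380.2. In the DETC libraries 1, 2, 3, a and b it read 630.1, 750.5, 791.4, 190.7 and 945.2, so that every DETC library was below every keratinocyte library. The difference of Thy1hi from DETC was 1.86 on the log2(normalized count + 1) scale (SE 0.32, 3.63-fold; limma adjusted p = 9.51e-05; exact permutation p = 0.0159 for 4 against 5 libraries, the smallest it can give). That of HFSC from DETC was 1.62 (SE 0.32; limma adjusted p = 0.000389). Without HFSC 4 and DETC a these were 1.46 and 1.23, both called (limma adjusted p = 1.46e-06 and 3.46e-05). YFP+ cells, the lowest of the keratinocytes in Egfr, were also above DETC, by 1.20 (limma adjusted p = 0.00935, a comparison in which 38.1% of all genes tested were called). No pair of keratinocyte populations next to each other in the order Thy1hi, Thy1-, HFSC and YFP+ differed beyond the spread.

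Erbb2, the partner without a ligand, varied least of the 10 members over the 4 keratinocyte means. Its means were 760 ± 208 in Thy1hi, 885 ± 166 in Thy1-, 814 ± 126 in HFSC (each SD, n = 4) and 895 ± 196 in YFP+ cells (SD, n = 3). In DETC the mean was 403 ± 166 (SD, n = 5), with 120.7 in DETC a and 385 to 524 in the other DETC libraries. Thy1hi was 1.04 above DETC on the log2 scale (SE 0.32; limma adjusted p = 0.0134) and HFSC 1.17 (SE 0.32; limma adjusted p = 0.00632). Leaving out HFSC 4 and DETC a brought these to 0.65 and 0.88, both still called (limma adjusted p = 0.00751 and 0.00168). The call of Thy1hi against DETC was lost in a fit of these 2 populations alone (limma adjusted p = 0.0546) and without Thy1hi 4 (limma adjusted p = 0.0568).

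Erbb3, the receptor for neuregulins, had on average the most transcript per length of the 3 receptors in each keratinocyte population, and read lower in the follicle than in the interfollicular cells sorted without YFP. Per kilobase of exon it stood at 348 ± 62.1 normalized counts in Thy1hi cells against 190.0 ± 37.8 for Egfr and 146 ± 39.9 for Erbb2 (SD, n = 4). In Thy1- libraries Erbb3 read 3425, 2527, 2159.7 and 2013 normalized counts and in Thy1hi libraries 1840.3, 2611, 2116 and 1799. HFSC libraries read 1052, 1269.6, 1358 and 669.8, all lower than any library of either interfollicular population. The difference of Thy1- from HFSC was 1.24 (SE 0.39; limma adjusted p = 0.0606) and that of Thy1hi from HFSC 0.98 (SE 0.39; limma adjusted p = 0.102), with an exact permutation p = 0.0286 for each, the smallest that 4 against 4 libraries allow. Neither was called with all libraries. Without HFSC 4 and DETC a they were 1.02 and 0.76 and were called (limma adjusted p = 0.00631 and 0.023). Against DETC, where Erbb3 read 601, 878, 959, 200.3 and 1289.9, Thy1hi cells were higher by 1.63 (SE 0.37; limma adjusted p = 0.00133), and by 1.20 without both odd libraries (limma adjusted p = 9.54e-05).

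Keratinocyte markers were present in DETC and were lowest in the DETC library with the lowest receptors. The 5 basal markers (Krt5, Krt14, Itga6, Itgb4 and Col17a1) summed to 5.01% to 23.2% of the Thy1hi mean in DETC. Other keratinocyte lists stood higher there. The 6 suprabasal markers, those of differentiated keratinocytes, summed to 24.9% to 175% of their Thy1hi mean, and the 6 bulge markers to 44.9% to 154%. In DETC a, where each of these sums was lowest within DETC, Egfr stood at 8.86%, Erbb3 at 9.58% and Erbb2 at 15.9% of the Thy1hi mean. In the other 4 DETC libraries Egfr stood at 29.3% to 43.9%, Erbb3 at 28.7% to 61.7% and Erbb2 at 50.7% to 68.9%. Among those 4 Egfr and Erbb3 did not follow the basal markers. DETC 1 held the highest basal marker sum (46131 normalized counts) and the lowest Egfr and Erbb3 of the 4. DETC b held a basal sum of 40304 and the highest Egfr and Erbb3. Erbb2 was lowest in DETC 2 (385), which held the lowest basal marker sum of the 4 (33571), and highest in DETC b (524). How much of the receptor signal in DETC came from keratinocytes was not tested.

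Areg, which encodes amphiregulin, a ligand of EGFR that immune cells also make, was the only member higher in DETC than in Thy1hi cells by limma without a block. It read 2174, 2939.9, 2193, 4600.4 and 1475 normalized counts in DETC 1, 2, 3, a and b. The Thy1hi libraries read 157, 182, 144 and 141, and the Thy1- libraries 90.0, 172, 177 and 177. In HFSC it read 186, 128, 155 and 21.7, the last in HFSC 4. No library of these 3 keratinocyte populations came near the lowest DETC library. The difference of Thy1hi from DETC was -4.00 on the log2 scale (SE 0.46, a 15.9-fold lower level; limma adjusted p = 8.07e-07; exact permutation p = 0.0159), and -3.77 without HFSC 4 and DETC a (limma adjusted p = 1.54e-09). That of HFSC from DETC was -4.69 with all libraries (SE 0.46; limma adjusted p = 9.13e-08) and -3.78 without HFSC 4 and DETC a (limma adjusted p = 6.41e-09).

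YFP+ libraries lay between, with Areg at 814, 388 and 323 normalized counts, above every other keratinocyte library and below every DETC library. YFP+ cells differed from DETC by -2.41 on the log2 scale (SE 0.50; limma adjusted p = 0.000753). They differed by 1.59 from Thy1hi cells (SE 0.53), which was not called with all libraries (limma adjusted p = 0.35; exact permutation p = 0.0571, the smallest that 3 against 4 libraries can give) and was called without HFSC 4 and DETC a (limma adjusted p = 0.0124). T cell markers summed to 108 to 193 normalized counts in YFP+ libraries and to 208 to 381 in Thy1hi libraries, and their part in the Areg values was not tested. Within DETC they moved with Areg, since DETC a held the most T cell marker counts (32331) and the most Areg, and DETC b the least of both (14772). The plot of Areg against T cell markers gives all 20 libraries.

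**Figure D2:**
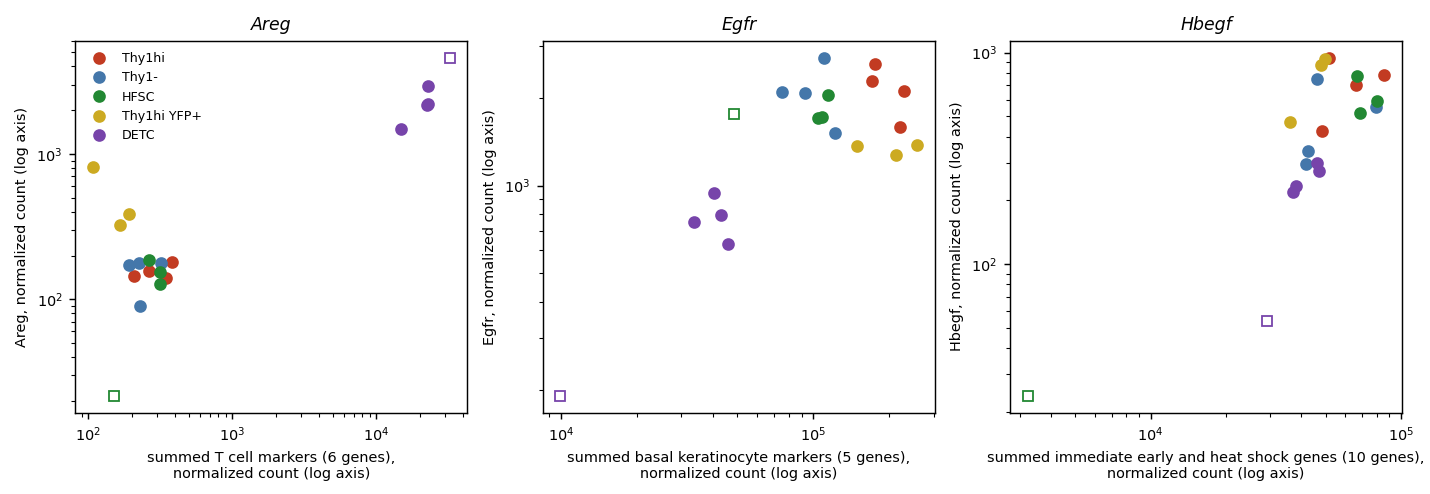
Scatter plots on log axes, with 1 symbol per library: Areg against the sum of 6 T cell markers, Egfr against the sum of 5 basal keratinocyte markers, and Hbegf against the sum of 10 immediate early and heat shock genes, all in normalized counts. DETC form a separate group at high T cell markers (14772 to 32331), DETC a lies lowest in Egfr (190.7), and HFSC 4 lies lowest in both Hbegf (23.8) and the immediate early sum (3229).

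Epgn and Nrg1 were the members with the largest differences between Thy1hi cells and HFSC, and were also higher in Thy1hi cells than in DETC. Epgn encodes epigen, a ligand of EGFR. It read 1233, 1015.5, 774 and 552 normalized counts in the Thy1hi libraries and 656, 433, 509 and 352 in the Thy1- libraries. In HFSC it read 189, 249, 289 and 15.4, and in DETC 128, 215, 189, 61.7 and 315. All Thy1hi libraries therefore exceeded all HFSC and all DETC libraries, while the ranges of Thy1hi and Thy1- overlapped. Thy1hi exceeded HFSC by 2.80 on the log2 scale (SE 0.63, 6.98-fold; limma adjusted p = 0.00493). Since HFSC 4 held only 6.36% of the mean of HFSC 1 to 3, this value fell to 1.84 without HFSC 4 and DETC a (limma adjusted p = 0.000148). The excess over DETC was 2.42 (SE 0.60, 5.35-fold; limma adjusted p = 0.00303), and 2.08 without them (limma adjusted p = 2.73e-06).

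Nrg1 encodes neuregulin 1, a ligand of ERBB3 and not of EGFR. It read 471, 377, 371 and 388 normalized counts in Thy1hi libraries and 665, 341 and 379 in YFP+ libraries. In Thy1- libraries it read 220.1, 212, 158 and 134, in HFSC 104, 172, 87.7 and 18.2, and in DETC 111, 107, 116, 20.6 and 114. All Thy1hi and YFP+ libraries were thus above every library of the other 3 populations. Thy1hi cells exceeded HFSC by 2.43 on the log2 scale (SE 0.54, 5.38-fold; limma adjusted p = 0.00429) and DETC by 2.31 (SE 0.51, 4.94-fold; limma adjusted p = 0.00119). Without HFSC 4 and DETC a these were 1.78 and 1.83 and stayed called (limma adjusted p = 4.77e-05 and 2.17e-06). The value of Nrg1 in Thy1- 4 depends on a correction: in that column 3212 genes stood in another sort order than the gene names, and Nrg1 is the only member among them. With the column as deposited, the differences of 2.43 and 2.31 kept their size but were no longer called (limma adjusted p = 0.163 and 0.0964). Neither comparison holds Thy1- 4, but the fit takes 1 spread per gene from all 20 libraries, and the SE rose to 1.09 and 1.04. The difference of Thy1hi from Thy1- was 2.72 in the deposited order (SE 1.09; limma adjusted p = 0.52).

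Tgfa and Hbegf, which encode transforming growth factor α and heparin-binding EGF-like growth factor, both ligands of EGFR, were also higher in Thy1hi cells than in DETC. Tgfa read 261, 239.7, 198 and 266 normalized counts in Thy1hi libraries, 223, 189.8, 193 and 167 in Thy1- libraries and 342, 197 and 301 in YFP+ libraries. It read 127, 95.6, 137 and 23.1 in HFSC and 72.4, 71.2, 104, 37.1 and 138 in DETC. The HFSC and DETC ranges lay below all interfollicular libraries. Thy1hi cells were above HFSC by 1.59 (SE 0.42; limma adjusted p = 0.0158; without both odd libraries 1.01, limma adjusted p = 0.0057) and above DETC by 1.62 (SE 0.40; limma adjusted p = 0.00314; without both odd libraries 1.36, limma adjusted p = 4.92e-05). The call against HFSC was lost in a fit of these 2 populations alone (limma adjusted p = 0.0537) and with the replicate block there (limma adjusted p = 0.0939).

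Hbegf, on the minus strand of chromosome 18 (36504929 to 36515805), read 701, 427, 947 and 788 normalized counts in Thy1hi libraries, 298, 341, 753 and 553 in Thy1- libraries and 935, 472 and 875 in YFP+ libraries. In DETC it read 301, 219, 274, 53.5 and 234, below every Thy1hi library, and Thy1hi cells were 1.87 higher (SE 0.72; limma adjusted p = 0.0471). This call was lost in 10 of the alternatives, among them leaving out any 1 of DETC 2, DETC b and Thy1hi 1, 3 and 4 (limma adjusted p = 0.058 to 0.111) or DETC a (limma adjusted p = 0.138), and returned when HFSC 4 was left out as well (1.43; limma adjusted p = 0.000505). In HFSC 1 to 4 Hbegf read 517, 777, 590.1 and 23.8. The value in HFSC 4 was 3.79% of the mean of the other HFSC libraries, the lowest share of the 10 members, and it came with the low immediate early and heat shock sum of that library. The receptors were much less reduced in HFSC 4, with Egfr at 96.4%, Erbb2 at 75.1% and Erbb3 at 54.6% of that mean. Areg, Epgn, Ereg, Nrg1, Btc and Tgfa stood at 6.36% to 19.3%. The part of these genes in the HFSC 4 values was not tested.

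Counted over the members, 8 of 10 were called between Thy1hi and DETC (7 higher in Thy1hi, and Areg lower), where 36.6% of all genes tested were called. Their median log2 difference was 1.63, against 0.00 for all genes. Between Thy1hi and HFSC, 3 of 10 were called, Epgn, Nrg1 and Tgfa, all higher in Thy1hi, against 13.4% of all genes. The median was 0.84 for the members and 0.02 for all genes. Between HFSC and DETC, 3 of 10 were called (Egfr and Erbb2 higher, Areg lower in HFSC) against 39.7% of all genes, and 4 without HFSC 4 and DETC a, with Hbegf added (1.28; limma adjusted p = 0.00308). Without them the counts were 8 between Thy1hi and DETC and 4 between Thy1hi and HFSC. The share of all genes called without HFSC 4 and DETC a is not at hand. Counts from that fit, here and below, therefore have no background and cannot be read against the shares given for all libraries.

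HFSC and DETC share replicate numbers 1 to 3. Deviations from the population means correlated at 0.171 to 0.333 for the same number and at -0.250 to 0.371 for other numbers. These ranges overlap, so whether the number pairs these libraries is not settled. Values with the number as a block are given beside the unblocked ones. The blocked fit of these libraries alone holds neither HFSC 4 nor DETC a and b. It called 9 of 10 members, all except Nrg1, where 42.2% of all genes were called. Areg remained the only member lower in HFSC (-3.95; limma adjusted p = 1.31e-06). Hbegf was higher in HFSC by 1.23 (limma adjusted p = 0.00116), and Ereg, Tgfa, Btc, Epgn and Erbb3 were higher by 0.46 to 0.61. In the same fit 4 of 4 Langerhans cell markers, 5 of 6 suprabasal markers and 8 of 10 immediate early and heat shock genes were higher in HFSC too, and their part in the members' differences was not tested.

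Between Thy1- and HFSC limma called 0 of 10 members, against 6.08% of all genes. At an unadjusted p under 0.05 there were 4, edgeR and DESeq2 each called 1, Erbb3, and 2 (Erbb3 and Epgn) were called without HFSC 4 and DETC a. Erbb3, Tgfa and Epgn read higher in all 4 Thy1- than in all 4 HFSC libraries. The share of all genes whose libraries separate in this way is not at hand, for this or any other comparison.

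**Figure D3:**
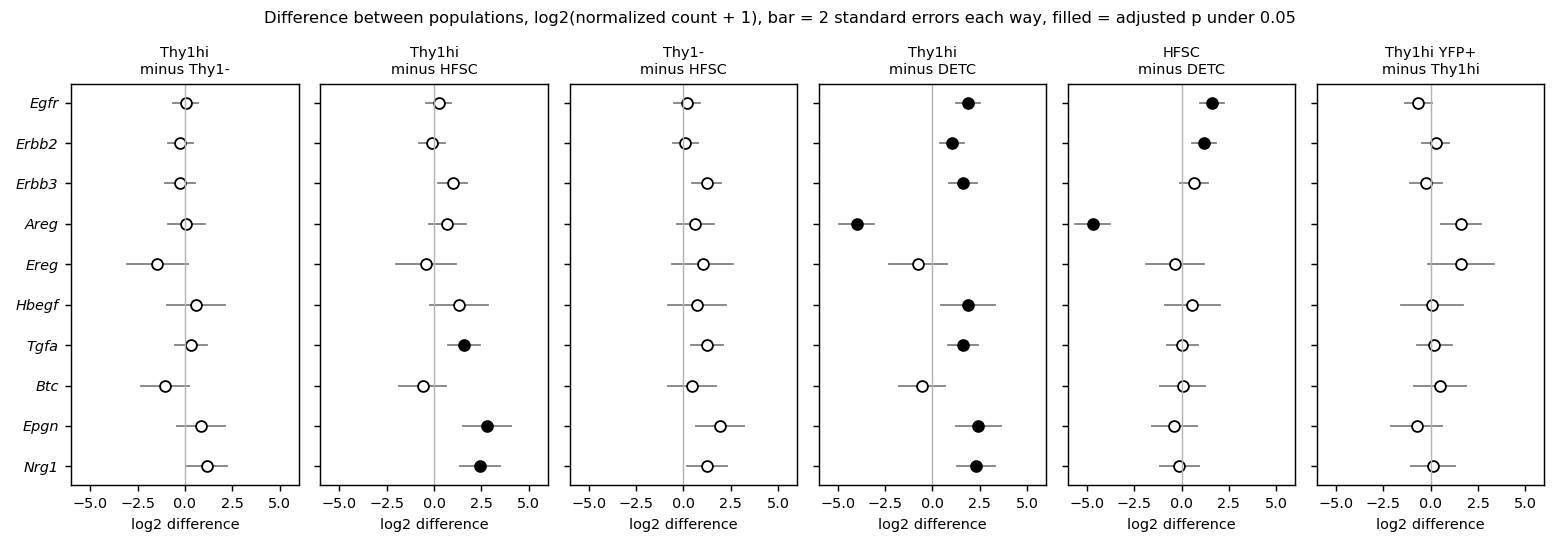
Difference of each member on the log2(normalized count + 1) scale in 6 comparisons, 1 panel each, the first population named minus the second; bars are 2 standard errors to each side and filled symbols have a limma adjusted p under 0.05. Areg in Thy1hi against DETC (-4.00) and in HFSC against DETC (-4.69) lies far below 0, while Epgn and Nrg1 lie above 0 in Thy1hi against HFSC (2.80 and 2.43).

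The comparison of Thy1hi with Thy1- cells asks what sets Thy1hi cells apart from other basal keratinocytes. Without a block, limma called 0 of 10 members, where it called 0.337% of all genes. Nrg1 alone had an unadjusted p under 0.05, and edgeR and DESeq2 called 0. Nrg1 was also the only member whose 4 Thy1hi values were all above the 4 Thy1- values (exact permutation p = 0.0286, the smallest possible). Its difference was 1.17 (SE 0.54, 2.25-fold; limma adjusted p = 0.637).

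Deviations from the population means correlated at 0.293 to 0.716 for Thy1hi and Thy1- libraries of the same replicate number. For other numbers the range was -0.652 to 0.514. These ranges overlap, so whether the number pairs these libraries is not settled. With the number as a block in a fit of these 8 libraries alone, 5 of 10 members were called, where 6.61% of all genes were called. When all populations entered the blocked fit, limma called 0 of 10 (Nrg1, limma adjusted p = 0.154). Nrg1 was higher in Thy1hi by 1.17 (SE 0.13; blocked limma adjusted p = 0.00117), Epgn by 0.85 (blocked limma adjusted p = 0.00332) and Hbegf by 0.60 (blocked limma adjusted p = 0.0424). Ereg was lower (-1.47; blocked limma adjusted p = 0.00741), as was Btc (-1.07; blocked limma adjusted p = 0.0363). The 3 receptors, Areg and Tgfa were not called, and their differences lay between -0.26 and 0.31. Within each numbered pair, Nrg1 was higher in Thy1hi by 1.10, 0.83, 1.23 and 1.53, and Epgn by 0.91, 1.23, 0.60 and 0.65. Both pointed the same way in 4 of 4 pairs, as did Hbegf and Tgfa.

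Ereg and Btc went the other way in 4 of 4 pairs. Ereg encodes epiregulin, a ligand of EGFR and ERBB4. It read 58.5, 108, 249.6 and 252 normalized counts in Thy1hi libraries 1 to 4 and 146, 653, 669 and 372 in Thy1- libraries. Its range in either population overlapped the other, and only within pairs was the order constant. Btc encodes betacellulin, a ligand of the same receptors. It read 24.3, 52.7, 36.6 and 80.5 in Thy1hi libraries and 52.3, 132, 127 and 87.7 in Thy1- libraries; over the series it had 18 to 175 reads per library, the fewest of the 7 ligands at its highest. In the remaining populations Ereg and Btc varied widely, with Ereg at 30.1 to 589 in HFSC, 252 to 623 in YFP+ and 63.1 to 790.3 in DETC libraries. Btc spanned 21.0 to 140.1 in HFSC, 26.8 to 135 in YFP+ and 24.7 to 156 in DETC libraries. No comparison without a block called either gene.

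Markers of differentiation moved with this split. In the blocked fit 5 of 5 basal keratinocyte markers were higher and 6 of 6 suprabasal markers lower in Thy1hi than in Thy1- cells, and 4 of 4 Langerhans cell markers were lower. Of 5 fibroblast markers 3 were higher in that fit, with sums of 1896, 949.7, 179.7 and 388 normalized counts in Thy1hi 1 to 4 and 120.5 to 204 in Thy1- libraries, highest in Thy1hi 1, where Nrg1 and Epgn were also highest. The sum of 6 bulge markers was 682 to 987 in Thy1hi and 1906 to 2131 in Thy1- libraries. The suprabasal sum was 8425 to 26622 normalized counts in Thy1hi and 26143 to 39804 in Thy1- libraries. Their part in the ligand differences was not tested. The ratio of Epgn to Ereg normalized counts was 21.1, 9.40, 3.10 and 2.19 in Thy1hi libraries 1 to 4 and 4.49, 0.663, 0.761 and 0.947 in Thy1- libraries. Both genes were chosen for their directions within pairs, so the order within pairs is given by that choice. Over the libraries the ranges overlapped, since Thy1- 1 exceeded Thy1hi 3 and Thy1hi 4.

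**Figure D4:**
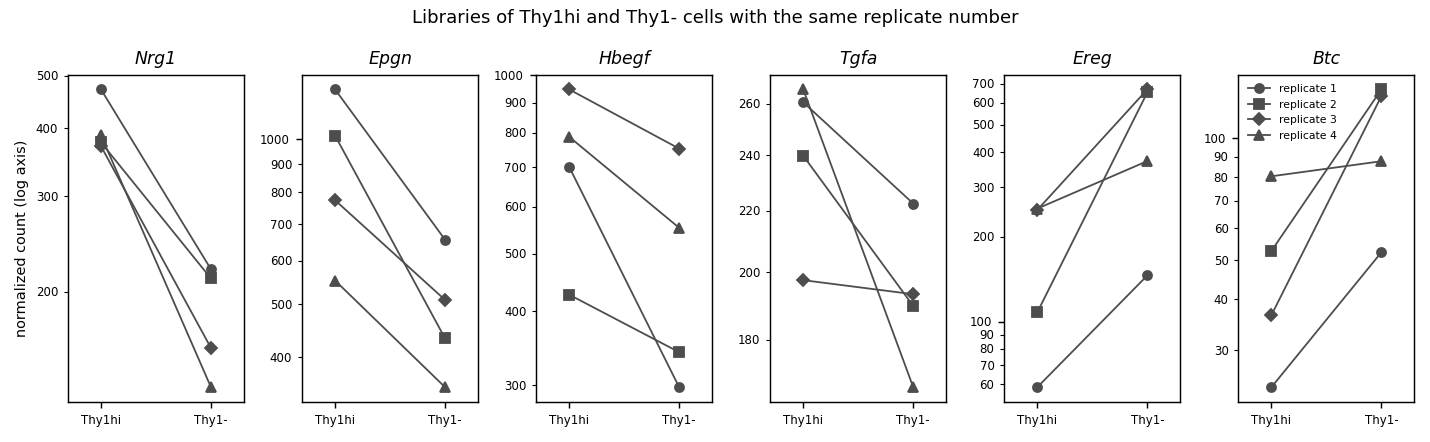
Normalized counts (log axis) of Nrg1, Epgn, Hbegf, Tgfa, Ereg and Btc in the Thy1hi and Thy1- libraries, with a line for each shared replicate number. All 4 lines fall from Thy1hi to Thy1- for Nrg1, Epgn, Hbegf and Tgfa, and all 4 rise for Ereg and Btc.

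YFP+ and Thy1hi cells were compared to see how cells labelled through the Thy1 promoter relate to the sort by antibody. With limma 0 of 10 members were called, against 0.0116% of all genes. There was 1 at an unadjusted p under 0.05, and edgeR and DESeq2 called 0. Areg read higher, as given above, and Egfr and Epgn lower in all 3 YFP+ libraries than in all 4 Thy1hi libraries. How many of all genes separate in this way is not at hand. Egfr differed by -0.66 (SE 0.36; limma adjusted p = 0.606) and Epgn by -0.75 (SE 0.68; limma adjusted p = 0.798), each with an exact permutation p = 0.0571, the smallest possible. Nrg1 differed by 0.14 with an interval of 2 standard errors from -1.02 to 1.30, which leaves room for a change of either sign. Ereg differed by 1.60 (SE 0.87; limma adjusted p = 0.597), with overlapping ranges. Suprabasal markers summed to 15435 to 57653 normalized counts in YFP+ against 8425 to 26622 in Thy1hi libraries, and 5 fibroblast markers to 40.6 to 212 against 179.7 to 1896; their part was not tested. Genotype and tamoxifen cannot be told apart from the YFP label here.

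Set side by side per kilobase of exon, the 7 ligands stood in differing mean proportions in the populations. Their sum was 2469 ± 861 normalized counts per kilobase in DETC (SD, n = 5), 1073 ± 296 in YFP+ (SD, n = 3), 898 ± 131 in Thy1hi, 678 ± 102 in Thy1- and 419 ± 257 in HFSC (each SD, n = 4). HFSC 4 stood at 48.6 and HFSC 1 to 3 at 448 to 613. In DETC Areg made up 87.0% of the sum on average, from 71.6% in DETC b to 98.1% in DETC a. In Thy1hi cells Epgn led with 54.0% (41.2% to 64.3%), ahead of Hbegf with 16.9% and Areg with 14.4%. Epgn also led in Thy1- cells with 40.5% (32.3% to 60.4%), and Ereg reached 15.9% there against 4.83% in Thy1hi. The ranges of the Thy1hi and Thy1- libraries overlapped for the share of every ligand except Nrg1. HFSC had no single leading ligand, with Areg at 27.6%, Epgn at 22.8%, Hbegf at 20.6% and Ereg at 16.4%. These means include HFSC 4, where Areg made up 36.8%. In HFSC 1 to 3 Areg stood at 34.1%, 18.6% and 20.8%. Epgn stood there at 23.4%, 24.3% and 26.1%, and Hbegf at 23.9%, 28.3% and 19.9%. In YFP+ cells Areg (37.4%) was ahead of Epgn (27.2%). Nrg1 amounted per length to 4.36% in Thy1hi, 4.09% in YFP+, 2.63% in Thy1-, 2.54% in HFSC and 0.431% in DETC. These shares describe transcripts and were not tested.

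**Figure D5:**
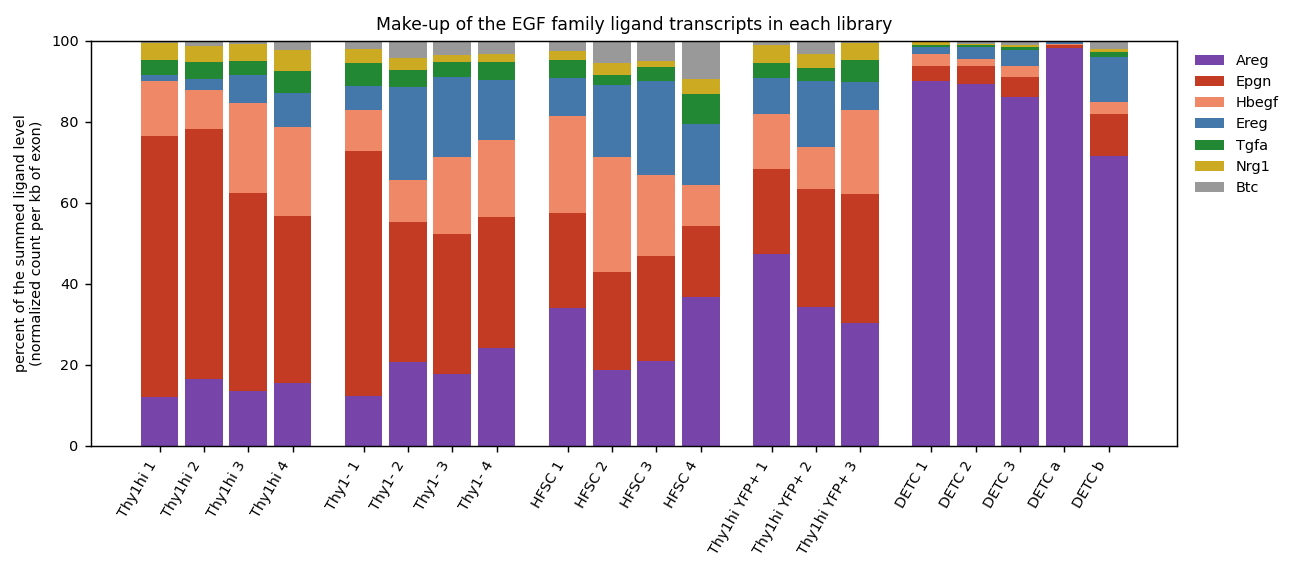
Share of each ligand (percent) in the summed normalized count per kilobase of the 7 ligands, 1 stacked bar per library, grouped by population. Areg fills 71.6% to 98.1% of the bar in DETC, and Epgn is the main share in Thy1hi cells (41.2% to 64.3%).

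Most of the remaining receptors and ligands of the family were scarce. Erbb4, the other receptor for neuregulins, averaged 0.288 to 10.2 normalized counts over the populations, Egf 3.998 to 20.2 and Nrg3 0.850 to 7.29. Of these 5 genes 3 passed the filter, and of those only Nrg2, a further neuregulin, was called between Thy1hi and DETC, at 44.9 ± 27.1 (SD, n = 4) against 8.54 ± 7.18 (SD, n = 5) and a difference of 2.71 (limma adjusted p = 0.00362). Its mean in Thy1hi cells was near that of the member Btc there (48.5). Nrg2 was also higher in HFSC (27.3 ± 11.7, SD, n = 4) than in DETC, by 2.06 (limma adjusted p = 0.0212). That call was lost without HFSC 4 and DETC a. With the replicate block Nrg2 was also higher in Thy1hi than in Thy1- cells, by 1.27 (blocked limma adjusted p = 0.025).

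Of 5 genes that release the ligands from the membrane, 1 was higher and 2 were lower in Thy1hi than in DETC, where 36.6% of all genes were called. Rhbdf1 and Rhbdf2 encode the iRhoms that bring the protease ADAM17 to the surface, and Frmd8 a protein that holds them there. Rhbdf1 was higher in Thy1hi by 1.20 (597 ± 24.7, SD, n = 4, against 278 ± 99.7, SD, n = 5; limma adjusted p = 0.000363). Rhbdf2 was lower by a difference of -1.13 (329.7 ± 42.7 against 727 ± 145; limma adjusted p = 0.000251), and so was Frmd8 (-1.03; limma adjusted p = 0.00679). HFSC differed from DETC in the same 3 genes, with Rhbdf1 higher by 0.78, Rhbdf2 lower (-1.05) and Frmd8 lower (-1.17). Between Thy1hi and Thy1- cells Rhbdf2 was lower in the blocked fit of these populations (-0.73; blocked limma adjusted p = 0.00341). Without the block limma called 0 of the 5, with 1 at an unadjusted p under 0.05 and 0 by edgeR and DESeq2, and 1 without HFSC 4 and DETC a. The transcripts of the proteases themselves were not called in any of the 6 comparisons without a block: Adam17 averaged 388 to 565 and Adam10 448 to 742 normalized counts over the populations.

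Some inhibitors of the pathway differed between Thy1hi cells and DETC by more than the receptors did, with no test of that contrast. Of 16 listed, 3 were higher and 5 lower in Thy1hi than in DETC, where 36.6% of all genes were called. Spry4 and Spry2, sprouty proteins that restrain RAS signalling, were among the lower ones. Spry4 averaged 7.83 ± 5.42 normalized counts in Thy1hi (SD, n = 4) and 437 ± 184 in DETC (SD, n = 5), a difference of -5.74 (limma adjusted p = 2.48e-09). Spry2 averaged 136 ± 35.2 and 1835 ± 567 (-3.73; limma adjusted p = 3.53e-10). The phosphatases Dusp4 and Dusp5, which act on ERK, differed by -2.22 and -2.21 (limma adjusted p = 0.00179 and 0.00358). In HFSC against DETC (39.7% of all genes called) 3 were higher and 8 lower, led by Spry4 (-4.39), Spry2 (-3.59) and Dusp5 (-3.10) on the lower side and Lrig3 (2.04) on the higher side.

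Between Thy1hi cells and HFSC 3 inhibitors were higher and 2 lower, where 13.4% of all genes were called. Cblb, a ubiquitin ligase that takes receptors out of use, was higher by 0.74 (limma adjusted p = 0.0377) and Spred2, an inhibitor of RAF activation, by 0.64 (limma adjusted p = 0.0474). Lrig3 and Spred1 were lower (-1.04 and -0.82; limma adjusted p = 0.0363 and 0.00627). For Thy1hi against HFSC edgeR called 3 inhibitors, DESeq2 7 and limma 4 without HFSC 4 and DETC a, and 8 had an unadjusted p under 0.05. With the replicate block only Lrig3 and Spred1 were called, so that the calls of Cblb and Spred2 were lost. Spred1 was also lower in Thy1- than in HFSC (-0.79; limma adjusted p = 0.0171). In that comparison limma and edgeR each called 1 inhibitor and DESeq2 called 3, 5 had an unadjusted p under 0.05, and limma called 4 without HFSC 4 and DETC a and 0 with the block. In the blocked comparison of Thy1hi with Thy1- cells (6.61% of all genes called), Errfi1, which binds and inhibits the EGFR kinase, was higher by 0.73 (blocked limma adjusted p = 0.0121) and Spred2 by 0.50 (blocked limma adjusted p = 0.0281), while Lrig1, a membrane protein that promotes loss of the receptors, was lower (-0.71; blocked limma adjusted p = 0.0077). Without the block none of the 16 was called between Thy1hi and Thy1- by limma, edgeR or DESeq2, and 2 had an unadjusted p under 0.05.

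Adaptors and kinases from receptor to ERK differed between Thy1hi and DETC in 9 of 16, 4 higher and 5 lower, where 36.6% of all genes were called. The kinase Braf was lower (-2.48 on the log2 scale; 342.5 ± 64.2, SD, n = 4, against 2076 ± 1096, SD, n = 5; limma adjusted p = 2.31e-07) and the adaptor Grb2 also (-0.98; limma adjusted p = 0.00341), while Hras and Gab1 were higher by 1.15 and 1.14 (limma adjusted p = 0.00209 and 0.00061). HFSC against DETC (39.7% of all genes called) gave 2 higher and 7 lower, among them Map2k1 (-1.27). No gene of this list was called by limma in the 4 comparisons between keratinocyte populations, where 0 to 4 had an unadjusted p under 0.05, edgeR called 0 and DESeq2 called 1 (in Thy1hi against HFSC). Without HFSC 4 and DETC a limma called 1 in each interfollicular population sorted without YFP against HFSC. Of 8 genes known to be induced by ERK, limma without a block called 2 between Thy1hi and DETC, where 36.6% of all genes were called. These were the transcription factors Etv4 and Etv5, higher in Thy1hi by 1.50 and 1.36 (limma adjusted p = 0.0106 and 0.000338). In HFSC against DETC, where 39.7% of all genes were called, that fit called the same 2 alone, higher in HFSC by 1.57 and 0.93. Other fits called more of the 8. Between Thy1hi and DETC edgeR called 3, DESeq2 4, and limma 5 without HFSC 4 and DETC a and 6 with the replicate block. Between HFSC and DETC these counts were 3, 4, 5 and 5. Of these alternatives, only the blocked fit of HFSC and DETC has a share of all genes at hand (42.2%). The median log2 difference of the 8 from DETC was 1.28 in Thy1hi and 0.67 in HFSC. Ccnd1, which encodes cyclin D1, was the only one of the 8 called between Thy1hi and Thy1-, with the block (0.68; blocked limma adjusted p = 0.0057). Without the block limma, edgeR and DESeq2 called 0 and 2 had an unadjusted p under 0.05.

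Across the 20 libraries the members fell into groups that rose and fell together, given as descriptions because the libraries share populations, depth and the odd libraries. On the log2 scale Tgfa, Epgn and Nrg1 had pairwise Pearson r of 0.90 to 0.93, Ereg and Btc 0.88, and Egfr and Erbb3 0.87. Areg was negatively related to Egfr (r = -0.84). Of all genes tested, those nearest to Areg were Glrx (r = 0.98), a glutaredoxin, and Usmg5 (r = 0.96). Those nearest to Ereg were Cysrt1 (r = 0.96) and Cnfn (r = 0.92), and to Btc Cdsn (r = 0.97) and Lypd5 (r = 0.96). Cnfn and Cdsn encode cornifelin and corneodesmosin, proteins of the outer epidermis. Hbegf was nearest to Dusp6 and Dusp1 (r = 0.94 and 0.93), phosphatases of the MAP kinases, and Nrg1 was close to Tgfa (r = 0.93). Epgn was nearest to Mfsd2a and Nr1d1 (both r = 0.96), and Tgfa to Bcl2l13 (r = 0.94). Among the receptors, Egfr was nearest to Arhgef5 and Jag1 (both r = 0.97), Erbb2 was close to Rapgefl1 (r = 0.97) and Erbb3 was nearest to Spint1 and Grpel2 (r = 0.98 and 0.96).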

How the data were processed

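RNA of 20 sorted libraries was sequenced and aligned with STAR to mouse genome mm10, and reads were counted per gene with featureCounts (versions not given in the sources used here). The values the authors deposited are a signal proportional to reads, that is normalized counts (reads divided by a size factor per library), rounded to 2 decimals, in 1 table. The methods name DESeq2. Multiplied by the factor recovered from its low values (0.729 to 1.43), a column gave whole reads for all genes (100% whole). The RNA gene Rn45s took 13.1% to 41.5% of the reads. The sources name different kits (mRNA or total RNA).

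In the column of Thy1- 4, 3212 genes stood in a sort order that ignores hyphens and case. At 1159 of them that are expressed, the correlation with the other Thy1- libraries was 0.0371 as deposited and 0.938 in the restored order, which was used. All 20 columns were used and 0 were left out.

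Populations were compared with limma 3.58.1 (lmFit, eBayes with trend; R 4.3.3) on log2(normalized count + 1), for genes of at least 10 in at least 3 libraries, in 1 fit of 20 libraries with no covariate, two-sided, with Benjamini-Hochberg adjustment over 17204 genes and a threshold of 0.05. Single members were also compared by exact two-sided permutation of mean log2 values (scipy 1.17.1). edgeR 4.0.16 and DESeq2 1.42.0 on the recovered reads were alternatives. The fits were tested on simulated data with known changes in Thy1hi against HFSC. There limma called 7 of 67 genes with a 2-fold change, 43 of 71 with a 4-fold change and 58 of 62 with an 8-fold change. It also called 4 of 16127 unchanged genes. A member that was not called may thus still differ by about 2-fold. The simulated spread was chosen and not fitted to these data, so these rates need not hold for them. Python 3.11.15, numpy 2.4.6, pandas 2.3.3 and matplotlib 3.10.9 were used.

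Replicate numbers come from the titles. Deviations from the population means correlated at 0.293 to 0.716 for libraries of the same number in Thy1hi and Thy1- (-0.652 to 0.514 for other numbers), and at 0.171 to 0.333 over 3 numbers in HFSC and DETC (-0.250 to 0.371 for others). In these comparisons the number was taken to pair libraries, although the ranges for the same and for other numbers overlapped.

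Text names all 10 members; of 5 pathway lists, called genes, at most 4 per list and comparison by size of change; for each member the 2 genes of highest Pearson r; and markers as lists. Some genes that this rule names are not reported here. A few list genes that were not called (Erbb4, Egf, Nrg3, Adam10 and Adam17) were added after their values were seen. Members and lists were chosen with earlier results of these data known. Levels per kilobase divide by merged exon length in GENCODE M21; Hbegf lies elsewhere there than in the table. Strand was not stated, so antisense reads cannot be told apart. Promoter sequences are from RefSeq (GRCm38.p6).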

Additional observations from a re-analysis of the deposited data

Results flagged for a closer look

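Of 40 sets of 4 or 5 libraries (10 members in each of 4 populations), 3 held 1 library farther from the rest than Dixon's 95% value allows, and chance alone flags about 1 in 20 sets. Egfr read 2039.8 normalized counts in HFSC 3 and 1701 to 1755 in the other HFSC libraries. Areg read 90.0 in Thy1- 1 and 172 to 177 in the other Thy1- libraries, and the difference of Areg between Thy1hi and Thy1- was not called in any alternative. Nrg1 read 20.6 in DETC a and 107 to 116 in the other DETC libraries, the same library in which the basal keratinocyte markers were lowest.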

How the results depend on the processing

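Of 1210 recomputed differences of single members, 1109 kept their direction and their side of the threshold, 37 gained a call, 16 lost one, 46 changed sign with no call on either side, and 2 reversed. With the replicate block in a fit of 2 populations, HFSC against DETC gave 9 members called and not 3, and Ereg and Epgn turned to 0.46 each from -0.34 and -0.38; that fit holds neither HFSC 4 nor DETC a and b. In Thy1hi against Thy1- the same kind of fit gave 5 called and not 0, while the block in all populations gave 0 (Nrg1, limma adjusted p = 0.154). With the block in all populations, where it is not settled that the numbers pair libraries, Thy1- against HFSC gave 4 and YFP+ against Thy1hi 1 (Egfr, -0.76). Thy1- against HFSC otherwise gave 3 with libraries rescaled to the same total, 1 with edgeR, 1 with DESeq2, 1 with only the 2 populations, 2 without HFSC 4 and DETC a, and 0 to 1 with 1 library left out. Thy1hi against Thy1- gave 1 (Nrg1) with only the 2 populations and 1 without HFSC 4 and DETC a, an alternative chosen after seeing the data, which also gave 1 (Areg) in YFP+ against Thy1hi. The cause of these changes was not tested. With 1 library left out in turn, Thy1hi against HFSC stayed at 3 and against DETC at 6 to 8. The block changed no other count of members called by more than 1.5 times.

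Depth limits the low ligands most, Nrg1 with 15 and Btc with 18 reads in DETC a, the library with the fewest reads on genes; at 3 to 5 libraries per population an exact test cannot pass below 0.0286 for 4 against 4 and 0.0571 for 3 against 4. Batches, age and number of mice per library could not be examined.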
